A study of Mus musculus with 19 samples.

Results

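The 9 mouse genes described here concern the making, carrying, charging and hydrolysis of creatine and phosphocreatine, with *Phospho1* included as a discussed partner. They were chosen by symbol from a fixed list, namely *Ckb*, *Ckm*, *Ckmt1*, *Ckmt2*, *Gatm*, *Gamt*, *Slc6a8*, *Alpl* and *Phospho1*, out of 55740 genes listed in the tables. All 9 are listed in the tables of 7 tissues and of brown adipose tissue (BAT), and 8 are listed in the table of inguinal white adipose tissue (iWAT), from which *Ckmt1* is missing. RNA-Seq libraries were available for 1 wild-type (WT) C57BL/6J mouse tissue each of tibialis anterior muscle, heart, brain, liver, white adipose, brown adipose and small intestine. Outside the cold exposure, housing was at 23 to 24 °C, and chow-fed mice were between 2 and 8 months of age, with no exact age given for these 7 tissues. The remaining 12 libraries came from iWAT and BAT of 5-month-old, chow-fed male mice kept in the cold at 8 °C for 1 week, with 3 WT and 3 MCK-Musclin libraries for each depot. MCK-Musclin mice overexpress the myokine Musclin (gene symbol *Ostn*) from a transgene in which its coding sequence follows the muscle creatine kinase promoter, that is, the promoter of the member gene *Ckm*. The transgenic lines had been backcrossed to C57BL/6J for at least 8 generations, and which founder line gave these libraries is not stated. All 12 libraries came from cold-exposed mice, so none shows either depot of these genotypes at another temperature. Values are FPKM, which scales fragments to exon length and to the number of mapped fragments, as deposited. They are thus already divided by length, so levels of different genes may be set side by side within a library.

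Creatine is made in a pair of steps, a guanidinoacetate-forming transfer by *Gatm* and a methylation by *Gamt*, and it enters cells through the transporter *Slc6a8*. Creatine kinases move a phosphate between ATP and creatine, with *Ckm* and *Ckb* in the cytosol and *Ckmt2* and *Ckmt1* in the mitochondrial intermembrane space. In thermogenic fat, a futile cycle has been described in which phosphocreatine is made and hydrolysed again with release of heat. *Ckb* and the phosphatase *Alpl* (tissue-nonspecific alkaline phosphatase) have been assigned to that cycle, and *Phospho1* is a phosphatase of phosphocholine and phosphoethanolamine that has been discussed as a partner.

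The promoters of 4 members are shown because the results turn on these genes: *Ckm* and *Ckmt2*, the muscle kinases, *Ckb*, the kinase assigned to the futile cycle of fat, and *Phospho1*. The bases lie upstream of the RefSeq transcript start in GRCm38.p6, are written 5′ to 3′ on the gene's strand, and stop before any exon in the GENCODE annotation. Capitals mark matches on either strand to the E-box CANNTG, the TATA box TATANA, the CCAAT box CCAAT and the GC box GGGCGG, and matches may overlap. *Ckm* has 181 bases at chr7:19410844-19411024 on the plus strand, *Ckmt2* has 250 at chr13:91876886-91877135 on the minus strand, *Ckb* has 250 at chr12:111672339-111672588 on the minus strand and *Phospho1* has 249 at chr11:95824250-95824498 on the plus strand.
Ckm: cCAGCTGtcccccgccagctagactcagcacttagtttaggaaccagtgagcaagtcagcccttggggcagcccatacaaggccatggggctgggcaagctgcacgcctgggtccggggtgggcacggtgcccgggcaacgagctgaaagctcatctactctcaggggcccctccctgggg
Ckmt2: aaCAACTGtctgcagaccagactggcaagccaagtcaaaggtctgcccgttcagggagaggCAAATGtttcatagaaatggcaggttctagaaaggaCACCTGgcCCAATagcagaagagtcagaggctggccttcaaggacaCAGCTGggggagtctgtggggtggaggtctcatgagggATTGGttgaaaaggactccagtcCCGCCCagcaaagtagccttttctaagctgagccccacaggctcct
Ckb: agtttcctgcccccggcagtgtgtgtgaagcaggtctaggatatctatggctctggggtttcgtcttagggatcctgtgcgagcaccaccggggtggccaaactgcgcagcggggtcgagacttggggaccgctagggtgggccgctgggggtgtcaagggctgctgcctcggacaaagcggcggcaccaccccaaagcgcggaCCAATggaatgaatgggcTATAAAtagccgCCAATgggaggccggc
Phospho1: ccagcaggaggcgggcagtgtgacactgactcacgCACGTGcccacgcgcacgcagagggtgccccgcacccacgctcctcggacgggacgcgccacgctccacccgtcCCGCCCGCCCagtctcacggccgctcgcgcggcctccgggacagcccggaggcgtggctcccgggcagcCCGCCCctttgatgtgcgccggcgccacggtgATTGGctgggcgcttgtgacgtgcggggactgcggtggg
Of 32851 RefSeq promoters, 66.2% held an E-box in the 250 upstream bases, 22.6% a TATA match, 33.8% a CCAAT match and 32.7% a GC box. The *Ckmt2* window held 4 E-boxes, *Ckm* and *Phospho1* held 1 each, and *Ckb* held 0. *Ckb* showed a TATA match 28 bases before the start and 2 CCAAT matches, and *Phospho1* held 3 GC boxes. In *Ckm*, TATA letters begin 33 bases before the start, within the last 69 bases, which are not printed because an annotated exon covers them. Such matches are letters in a window and were not tested as sites. In all, 8 of the 9 members had an entry in the promoter table, and *Slc6a8* had none.

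Across the 7 tissues, the 4 creatine kinase genes divided the tissues among themselves. With 1 library per tissue there is no spread between replicates, no test was made and neighbouring values cannot be ranked beyond error. A gene was called tissue-enriched where its highest FPKM plus 1 was at least 5 times the next highest FPKM plus 1, and 4 of the 9 members met this (*Ckm*, *Ckmt1*, *Gatm* and *Gamt*), against 14.7% of the 18327 genes with an FPKM of at least 1 in a tissue.

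*Ckm* (ENSMUSG00000030399, chromosome 7, 19404776 to 19422841 on the plus strand of GRCm38), the cytosolic muscle kinase, was highest in tibialis anterior muscle with an FPKM of 3969. It stood at 345 in heart, 18.8 in brown adipose, 9.14 in white adipose, 1.89 in brain, 1.38 in small intestine and 0.0809 in liver. Muscle thus held 91.4% of the *Ckm* FPKM summed over the tissues. *Ckmt2* (ENSMUSG00000021622, chromosome 13, 91853387 to 91876885, minus strand), the mitochondrial kinase of sarcomeric muscle, had an FPKM of 911 in heart and 831 in muscle. Every other tissue was far below, with 4.53 in white adipose, 3.21 in brown adipose, 0.591 in brain, 0.112 in liver and a listed 0 in small intestine. The balance of both differed between the striated muscles, since the FPKM of *Ckmt2* divided by that of *Ckm* was 2.64 in heart and 0.209 in tibialis anterior.

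*Ckb* (ENSMUSG00000001270, chromosome 12, 111669361 to 111672338, minus strand), the brain-type cytosolic kinase, reached an FPKM of 500.05 in brain and 203 in small intestine. Brown adipose at 45.2 and white adipose at 28.6 came next, followed by heart at 11.4, liver at 2.86 and muscle at 1.24. *Ckmt1* (ENSMUSG00000000308, chromosome 2, 121357714 to 121363737, plus strand), the ubiquitous mitochondrial kinase, had an FPKM of 769 in small intestine and 97.1 in brain. White adipose had 0.441, and the gene is listed at 0 in heart, muscle, liver and brown adipose. Both fat tissues therefore had *Ckb* with next to no *Ckmt1*, whereas brain and intestine had both.

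**Figure D1:**
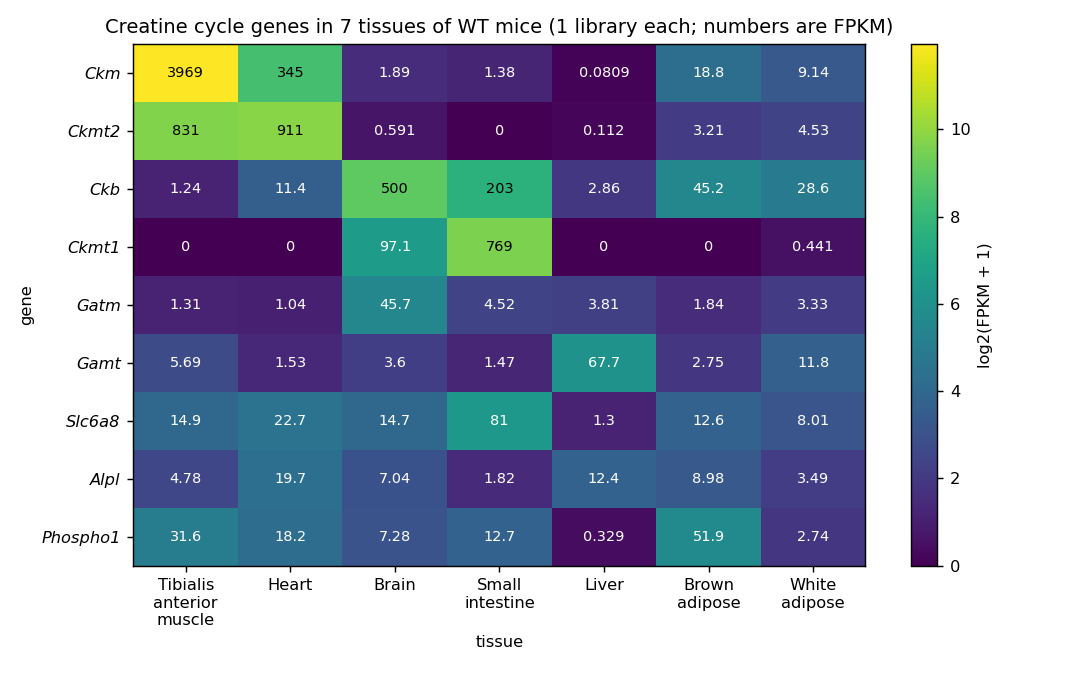
FPKM of the 9 genes in 1 WT library of each of 7 tissues, with tissues on the horizontal axis, genes on the vertical axis and color as log2(FPKM + 1). The kinases split into a muscle pair (Ckm 3969 in tibialis anterior, Ckmt2 911 in heart) and a brain and intestine pair (Ckb 500.05 in brain, Ckmt1 769 in intestine), while the largest Phospho1 value, 51.9, is in brown adipose.

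Summed over the 4 kinases, FPKM was 4800.3 in tibialis anterior muscle, 1267 in heart, 973 in small intestine, 599.7 in brain, 67.2 in brown adipose, 42.8 in white adipose and 3.05 in liver. *Ckm* made up 82.7% of that sum in muscle, *Ckmt2* 71.9% in heart, *Ckb* 83.4% in brain and *Ckmt1* 79.0% in intestine. *Ckb* had its highest share in liver, 93.7% of the lowest sum. In fat, *Ckb* was the largest part, with 67.2% in brown and 66.98% in white adipose. The rest in fat was mainly *Ckm*, with 28.0% in brown and 21.4% in white adipose. Genes of fast muscle fibers were present in the same fat libraries: the summed FPKM of 19 such genes (among them *Acta1*, *Myh4* and *Tnnt3*) was 669 in brown and 464 in white adipose, against 155951 in tibialis anterior. *Ckm* as a percentage of that sum was 2.81% in brown adipose, 1.97% in white adipose and 2.55% in tibialis anterior muscle. The part of muscle RNA in the *Ckm* of fat was not tested.

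**Figure D2:**
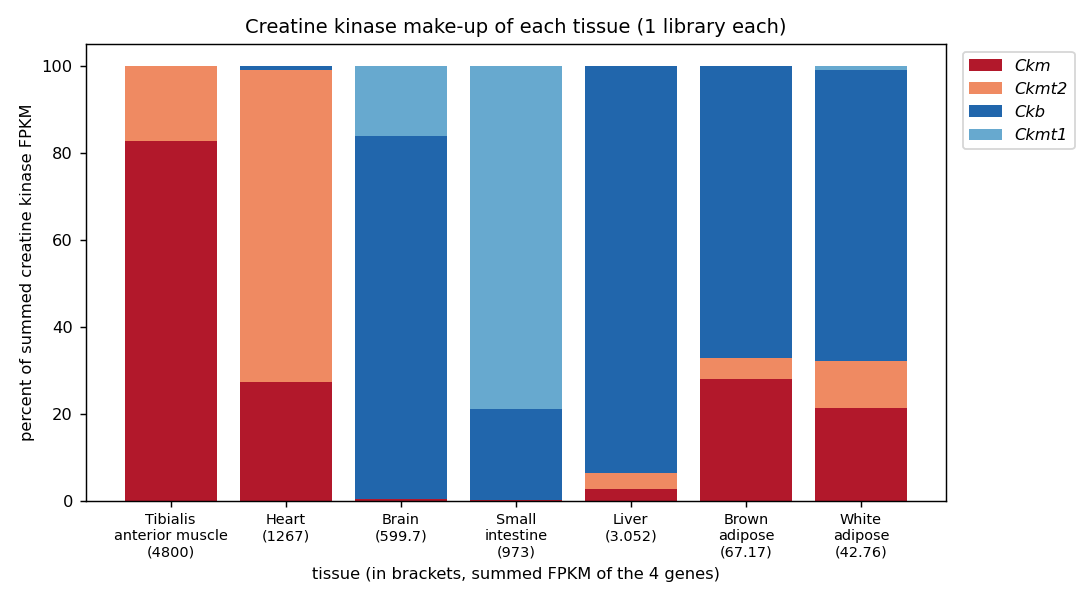
Share of each of the 4 creatine kinase genes in their summed FPKM (vertical axis, percent) for 7 tissues (horizontal axis, the sum in brackets), 1 library each. Ckb leads in liver, brain and both fats (93.7%, 83.4%, 67.2% and 66.98%), Ckmt1 in intestine (79.0%), Ckm in muscle (82.7%) and Ckmt2 in heart (71.9%).

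The synthesis enzymes were highest in different tissues. *Gatm* (ENSMUSG00000027199, chromosome 2, 122594467 to 122611303, minus strand), which forms guanidinoacetate from arginine and glycine, had an FPKM of 45.7 in brain and between 1.04 in heart and 4.52 in small intestine elsewhere. *Gamt* (ENSMUSG00000020150, chromosome 10, 80258151 to 80261012, minus strand), which methylates guanidinoacetate to creatine, had 67.7 in liver, 11.8 in white adipose, 5.69 in muscle, 3.60 in brain, 2.75 in brown adipose, 1.53 in heart and 1.47 in intestine. White adipose thus came second for *Gamt*, and its FPKM plus 1 was over 2 times that of brown adipose, as for 21.9% of all genes compared. Kidney and pancreas, known as main sites of the *Gatm* step, were not among the tissues.

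*Slc6a8* (ENSMUSG00000019558, chromosome X, 73673150 to 73682502, plus strand), the creatine transporter, had an FPKM of 81.0 in small intestine, 22.7 in heart, 14.9 in muscle, 14.7 in brain, 12.6 in brown adipose, 8.01 in white adipose and 1.30 in liver. Liver, the tissue with the most *Gamt*, thus had the least *Slc6a8*. *Alpl* (ENSMUSG00000028766, chromosome 4, 137741733 to 137796384, minus strand) was the most evenly spread member, with 19.7 in heart, 12.4 in liver, 8.98 in brown adipose, 7.04 in brain, 4.78 in muscle, 3.49 in white adipose and 1.82 in intestine.

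*Phospho1* (ENSMUSG00000050860, chromosome 11, 95824499 to 95832140, plus strand) was the member with its highest value in brown adipose, an FPKM of 51.9, followed by 31.6 in muscle, 18.2 in heart, 12.7 in intestine, 7.28 in brain, 2.74 in white adipose and 0.329 in liver. With 1 added to each value, brown adipose was 14.2 times white adipose for *Phospho1* and 2.22 times for *Alpl*. These were the members at 2 times or more in that direction, as 4.02% of all genes compared were. *Ckb* came to 1.56 times, *Slc6a8* to 1.51 times and *Ckm* to 1.95 times. A library's top 10 genes made up 52.4% of all FPKM in brown adipose and 16.98% in white adipose.

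The genes whose log2(FPKM + 1) followed a member most closely over the 7 tissues, among 13435 genes with an FPKM of at least 5 in a tissue, are given by Pearson's r as a description. For *Ckm* they were *Mylk4* (0.996), *Ankrd23* (0.995) and *Trdn* (0.992), and for *Ckmt2* they were *Hrc* (0.997), *Lmod3* (0.997) and *Alpk3* (0.995), all known from striated muscle. *Ckmt1* lay closest to *Gdpd2* (0.999), *Sgpp2* (0.999) and *Far2* (0.998), and *Ckb* to genes that included *Sppl2b* (0.993) and *Cmtr1* (0.981). *Gatm* lay closest to *Ccp110* (0.993), *Pbx4* (0.992) and *Ftx* (0.986), and *Gamt* to genes that included *Lrrc28* (0.972) and *Aox3* (0.970). *Slc6a8* followed *Vdac2* (0.967), *Tjap1* (0.953) and *Sema3b* (0.942), and *Phospho1* followed *Pptc7* (0.963), *Idh3a* (0.958) and *Alkbh7* (0.949). *Alpl* had the lowest such values, with 0.926 for *Grsf1*, 0.910 for *Cdh2* and 0.882 for *mt-Ti*. All points share the 7 libraries.

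Genes of creatine precursor and methyl supply were mostly highest in liver. This list holds 14 genes that make or use arginine, glycine or methyl groups, or carry creatine or its precursor. Of them, 10 had their highest FPKM in liver, among them *Ass1* (1427), an arginine-making enzyme, and *Ahcy* (592), which clears the by-product of methylation. *Gnmt* (352), another methyltransferase, which uses methyl groups rather than supplying them, was also among these. *Mat1a*, the liver form of the enzyme that makes the methyl donor, had an FPKM of 333 in liver and at most 0.335 elsewhere, while *Mat2a*, the other form, was highest in white adipose with 52.2. Of 11 phosphotransfer and exchange partners, 4 were highest in tibialis anterior muscle, among them the adenylate kinase *Ak1* (553) and the ADP/ATP carrier *Slc25a4* (1609). Of 8 genes of phosphocholine and phosphoethanolamine metabolism, 3 were highest in liver, 3 in brain, 1 in white adipose and 1 in brown adipose, the last being *Chkb* with 16.4 beside 16.3 in white adipose. The share of all genes that are highest in each tissue was not counted. The counts for these lists therefore cannot be set against a general rate.

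In cold-exposed iWAT, the question was which members differed between MCK-Musclin and WT libraries. The transgene product was read first as a check of the labels. *Ostn* had an FPKM of 5.17 and 4.21 in MCK-Musclin libraries 2 and 3 and is listed at 0 in the library labelled MCK-Musclin 1, while WT libraries 1 and 2 are listed at 0 and WT library 3 had 0.225. The transgene follows a muscle promoter, and the library labelled MCK-Musclin 1 held little muscle RNA. Its 19 fast muscle genes summed to an FPKM of 46.0, and *Ckm* is listed at 0. *Ostn* therefore can neither bear out nor contradict the label of that 1 library, and the members' values are also given without it. *Phospho1* was lower in MCK-Musclin iWAT and passed the cutoff, and the other 7 members tested did not. The test was limma on log2(FPKM + 1) over the 12197 genes whose FPKM averaged 1 or more across the 6 libraries, and the cutoff was the study's, an unadjusted p under 0.05 with a log2 change over 0.5. So 1 of 8 members was lower at the cutoff and 0 were higher, while 0.902% of all genes were lower and 5.04% higher. The count was also 1 without the library labelled MCK-Musclin 1. With Benjamini-Hochberg adjustment, 0 genes in the whole iWAT table passed 0.05 in limma, although 2012 genes (16.5%) had an unadjusted p under it. The median log2 change of the 8 members was -0.20, against 0.06 over all genes tested. The study describes its RNA-Seq samples as coming from separate animals, while the labels give only replicate numbers.

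*Phospho1* had an FPKM of 9.08, 12.3 and 23.1 in the WT libraries 1 to 3 and of 8.08, 2.77 and 1.51 in the libraries labelled MCK-Musclin 1 to 3. The highest MCK-Musclin library lay just under the lowest WT library, so the groups did not overlap, as held for 5.44% of all genes in that direction and for 17.9% in the other. The means were 14.8 ± 7.32 and 4.12 ± 3.49 (SD, n = 3 each), and *Phospho1* fell by 1.74 on the log2(FPKM + 1) scale (SE 0.50, limma with Benjamini-Hochberg adjusted p = 0.179). Without the library labelled MCK-Musclin 1 the change was -2.26. Brown and beige fat genes were lower in the same libraries, 8 of 12 at the cutoff, including *Ucp1*, the uncoupling protein (log2 change -3.00), *Cidea* (-1.45) and *Cox7a1* (-1.97). Their summed FPKM was 594, 930 and 1102 in WT and 665, 237 and 125 in MCK-Musclin iWAT, so the 2 MCK-Musclin libraries lowest in *Phospho1* were also lowest in these genes. *Phospho1* as a percentage of that sum was 1.53%, 1.32% and 2.09% in WT and 1.21%, 1.17% and 1.204% in MCK-Musclin libraries, without overlap (two-sided exact permutation p = 0.1, the floor for 3 against 3). Relative to these genes, with their mean log2 level subtracted, *Phospho1* was at -0.50 (SE 0.19, limma adjusted p = 0.26). In bulk tissue, fewer cells of a type and less RNA per cell cannot be told apart.

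**Figure D3:**
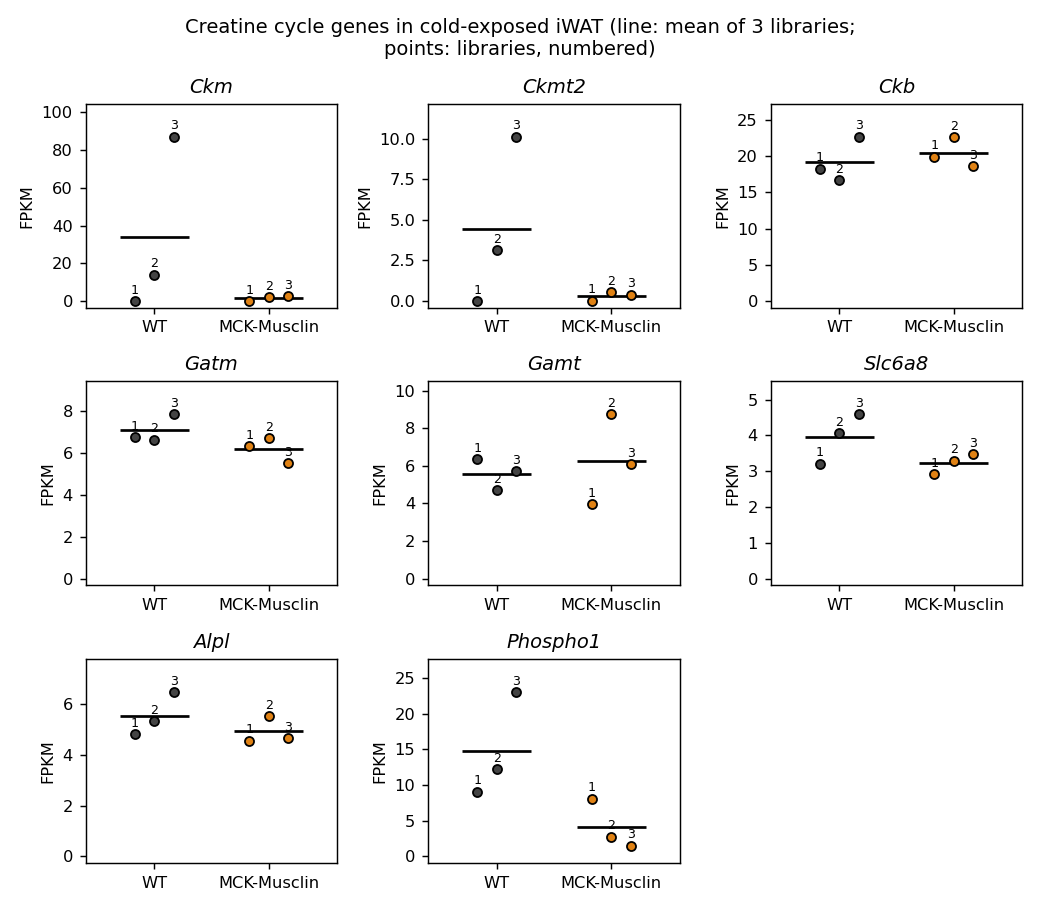
FPKM (vertical axes) of 8 creatine cycle genes in cold-exposed iWAT, 3 WT and 3 MCK-Musclin libraries, with a point per library and a line at the group mean. Phospho1 separates the groups (9.08 to 23.1 against 1.51 to 8.08), while Ckm and Ckmt2 range from a listed 0 to 87.2 and 10.1 within WT.

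The muscle kinases varied far more between iWAT libraries than the other members. *Ckm* had an FPKM of 14.0 and 87.2 in WT libraries 2 and 3 and is listed at 0 in WT library 1, and it had 2.16 and 2.63 in MCK-Musclin libraries 2 and 3 and is listed at 0 in the library labelled MCK-Musclin 1. *Ckmt2* is listed at 0 in WT library 1 and had 3.14 and 10.1 in the others, against 0.0320, 0.534 and 0.395 in MCK-Musclin libraries. Both groups thus reach down to nearly nothing, and the groups overlap for both genes. The log2 change was -2.28 for *Ckm* (SE 1.46, limma adjusted p = 0.471) and -1.46 for *Ckmt2* (SE 0.77, limma adjusted p = 0.384). These changes depended on single libraries. Without WT library 1, *Ckm* was at -4.01 (limma adjusted p = 0.0863) and *Ckmt2* at -2.38 (limma adjusted p = 0.0598), both past the cutoff. Without the library labelled MCK-Musclin 1 they were at -1.70 and -1.29 and missed it. Without WT library 3, the library with the most *Ckm*, the change of *Ckm* shrank to -0.78.

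Fast muscle genes varied with both kinases in these libraries. The summed FPKM of the 19 genes was 47.2, 960 and 5239.7 in WT and 46.0, 223 and 241 in MCK-Musclin iWAT, with the lowest sum of each genotype in the library where *Ckm* is listed at 0. *Myl1*, a fast myosin light chain, alone made up 33.6 and 31.1 of these lowest sums, and 1 of the 19 genes is at 0 in each of those libraries. In limma 0 of 19 passed the cutoff (0 at an unadjusted p under 0.05), with a median log2 change of -1.93. Relative to the fast muscle genes, with their mean log2 level subtracted, *Ckmt2* turned to 0.35 (SE 0.60) and *Ckm* was at -0.48 (SE 0.18). The log2(FPKM + 1) scale understates changes at values as low as those of *Ckmt2*. As a percentage of the fast muscle sum, *Ckm* averaged 1.04% in WT and 0.685% in MCK-Musclin iWAT (exact permutation p = 0.6). *Ckmt2* averaged 0.173% in WT and 0.158% in MCK-Musclin iWAT (exact permutation p = 0.9). The part of muscle RNA in the iWAT values of *Ckm* and *Ckmt2* was not tested.

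*Ckb*, the brain-type cytosolic kinase, had an FPKM of 18.3, 16.6 and 22.7 in WT and 19.9, 22.6 and 18.6 in MCK-Musclin iWAT. Its log2 change was 0.09 (SE 0.14, limma adjusted p = 0.785), and the groups overlapped throughout. The share of *Ckb* in the summed kinase FPKM nevertheless ran from 18.9% in WT library 3 to the whole of it in WT library 1, where both muscle kinases are listed at 0. In MCK-Musclin iWAT that share was 99.8%, 89.4% and 86.0%. In WT library 3, *Ckm* was the largest part with 72.7%.

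*Gatm* had an FPKM of 6.74, 6.62 and 7.84 in WT and 6.32, 6.68 and 5.50 in MCK-Musclin iWAT, and *Gamt* had 6.34, 4.71 and 5.70 against 3.97, 8.75 and 6.10. Both groups overlapped for both synthesis enzymes, with log2 changes of -0.17 (SE 0.12, limma adjusted p = 0.502) for *Gatm* and 0.10 (SE 0.24, limma adjusted p = 0.873) for *Gamt*. The transporter *Slc6a8* had 3.21, 4.06 and 4.59 against 2.91, 3.30 and 3.49, a log2 change of -0.22 (SE 0.14, limma adjusted p = 0.463). *Alpl* had 4.82, 5.34 and 6.50 against 4.57, 5.54 and 4.68, a log2 change of -0.14 (SE 0.13, limma adjusted p = 0.641). Without the library labelled MCK-Musclin 1, the log2 changes were 0.10 for *Ckb*, -0.19 for *Gatm*, 0.35 for *Gamt* (SE 0.19, limma adjusted p = 0.423), -0.17 for *Slc6a8* and -0.10 for *Alpl*, and none of these genes passed the cutoff. When the libraries were centred on general adipocyte genes, which raised the median log2 change of all genes by 0.19, *Gatm* came to 0.02 and *Alpl* to 0.05. Genes of other cells also differed between the groups in iWAT: all 6 B cell genes and 4 of 6 T cell genes were higher at the cutoff, with summed FPKM of 135 to 259 in WT and 292 to 387 in MCK-Musclin libraries for B cells. Adipocyte genes summed to 16807 to 17928 in WT and 15169 to 16713 in MCK-Musclin iWAT. The part of these differences in the members' values was not tested.

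In limma, 0 of 10 genes of creatine precursor and methyl supply, 0 of 9 phosphotransfer partners and 0 of 6 genes of phosphocholine metabolism passed the cutoff in iWAT (1, 0 and 1 at an unadjusted p under 0.05). Those at an unadjusted p under 0.05 were *Slc7a1*, a transporter of arginine (log2 change 0.34, SE 0.11, limma adjusted p = 0.215), and *Pcyt1a*, an enzyme that uses phosphocholine (log2 change -0.42, SE 0.11, limma adjusted p = 0.155). The median log2 change was 0.07 for precursor supply, -0.16 for the phosphotransfer partners and -0.00438 for phosphocholine metabolism, beside 0.06 for all genes. The ADP/ATP carriers, which work beside the mitochondrial kinases, were at -0.22 for *Slc25a4* and -0.14 for *Slc25a5*.

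In cold-exposed BAT, both muscle kinases were higher in MCK-Musclin libraries at the cutoff, here an unadjusted p under 0.05 with a log2 change over 0.3. Of the 9 members, 6 averaged an FPKM of 1 or more over the 6 libraries and were tested. Of these, 2 were higher and 0 lower, while 1.85% of the 10893 genes tested were higher and 2.15% lower. Over all genes, 4.89% had an unadjusted p under 0.05. The median log2 change of the 6 members tested was 0.28, against -0.01 over all genes. With Benjamini-Hochberg adjustment in limma, 1 gene in the whole table (0.00918%) passed 0.05 and it was no member.

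*Ckmt2* had an FPKM of 3.76, 5.99 and 3.26 in WT and 19.05, 7.17 and 8.82 in MCK-Musclin BAT. The lowest MCK-Musclin value exceeded the highest WT value, as held for 4.38% of all genes in that direction and for 5.63% in the other, and MCK-Musclin library 1 stood highest. *Ckmt2* rose by 1.17 on the log2(FPKM + 1) scale (SE 0.34, limma with Benjamini-Hochberg adjusted p = 0.929), with means of 4.33 ± 1.45 and 11.7 ± 6.43 (SD, n = 3 each). *Ckm* had 11.3, 18.6 and 11.7 in WT and 36.5, 17.6 and 25.1 in MCK-Musclin BAT. Here the groups overlapped, since WT library 2 exceeded MCK-Musclin library 2. *Ckm* rose by 0.86 (SE 0.28, limma with Benjamini-Hochberg adjusted p = 0.968), with means of 13.9 ± 4.11 and 26.4 ± 9.50 (SD, n = 3 each), but it missed the cutoff without WT library 1 (0.74) or without WT library 3 (0.76).

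**Figure D4:**
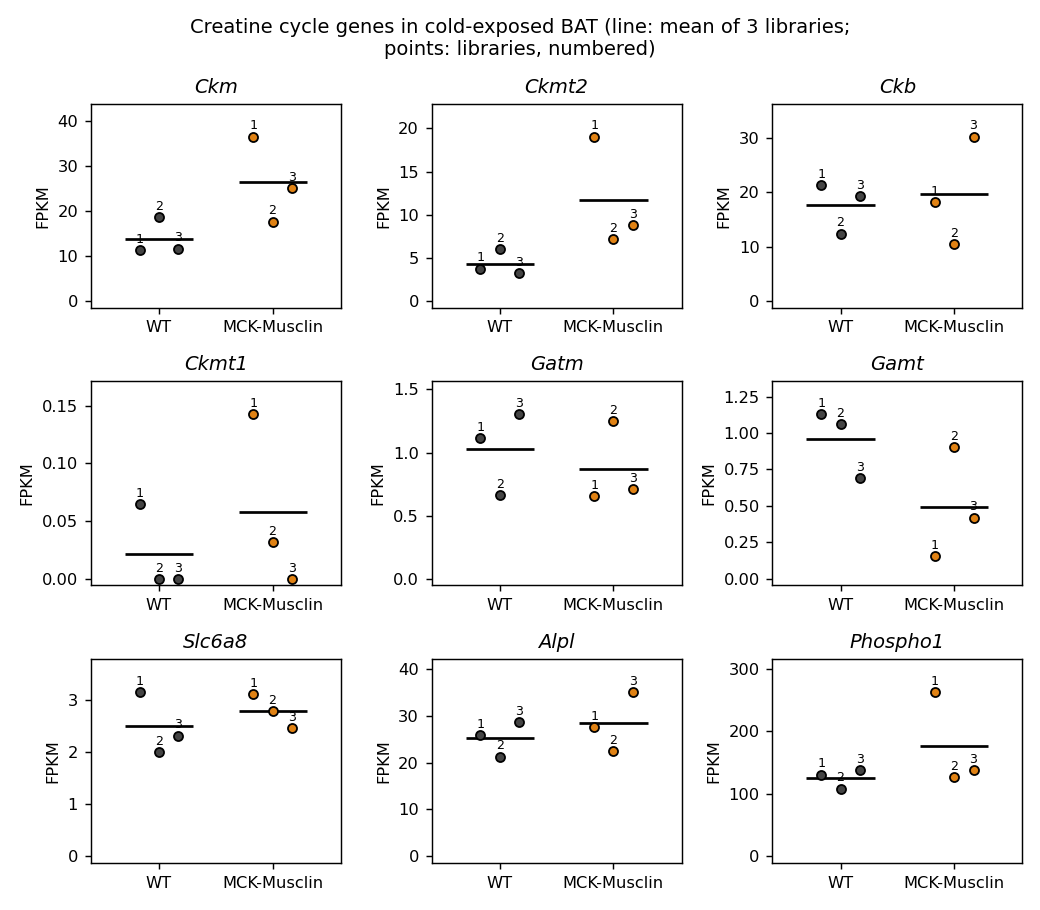
FPKM (vertical axes) of the 9 creatine cycle genes in cold-exposed BAT, 3 WT and 3 MCK-Musclin libraries, with a point per library and a line at the group mean. Ckmt2 separates the groups (3.26 to 5.99 against 7.17 to 19.05), and MCK-Musclin library 1 is highest for Ckm, Ckmt2 and Phospho1.

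Fast muscle genes were higher in the same BAT libraries. Of the 19, 16 were higher at the cutoff, among them *Acta1*, the skeletal actin (log2 change 1.12), *Myh4*, a fast myosin heavy chain (0.82), and *Tnnt3*, a fast troponin (1.15). Their summed FPKM was 694, 964 and 619 in WT and 2185, 1021 and 1407 in MCK-Musclin BAT, without overlap (two-sided exact permutation p = 0.1). All 19 had an FPKM above 0 in all 6 libraries. Of 6 slow muscle genes, 0 passed the cutoff in limma (0 at an unadjusted p under 0.05), with a median log2 change of 0.69. All 6 had a positive log2 change. Their summed FPKM was 48.1, 44.4 and 21.6 in WT and 149, 65.3 and 26.3 in MCK-Musclin BAT, with overlap.

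Both kinases were then measured against these genes. *Ckm* was 1.63% to 1.93% of the fast muscle sum in WT and 1.67% to 1.79% in MCK-Musclin BAT (exact permutation p = 0.4), and its log2 change relative to the fast muscle genes was -0.03 (SE 0.11, limma adjusted p = 0.993). *Ckmt2* was 0.526% to 0.621% of that sum in WT and 0.627% to 0.872% in MCK-Musclin BAT, without overlap (exact permutation p = 0.1). Its relative log2 change stayed positive at 0.28 (SE 0.13, limma adjusted p = 0.968) but missed the cutoff. The FPKM of *Ckmt2* divided by that of *Ckm* was 0.279 to 0.332 in WT and 0.351 to 0.522 in MCK-Musclin BAT, again without overlap (exact permutation p = 0.1), beside 0.209 in tibialis anterior muscle and 2.64 in heart. Within each genotype, the libraries ranked by *Ckmt2* over *Ckm* as they did by the slow muscle sum. Heart genes summed to at most 1.90 FPKM in any BAT library. The part of muscle RNA in the BAT values of *Ckm* and *Ckmt2* was not tested beyond these ratios.

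The transgene product, which shares its promoter with *Ckm*, was read in the same libraries. *Ostn* is listed at 0 in all 3 WT BAT libraries and had an FPKM of 37.9, 31.6 and 30.3 in MCK-Musclin BAT, 1.04, 1.80 and 1.21 times the *Ckm* value of the same library. In iWAT, the library labelled MCK-Musclin 1, listed at 0 for *Ostn*, is listed at 0 for *Ckm* too, and WT library 3, the WT library with *Ostn*, had the most *Ckm*. Whether the transgene holds transcribed *Ckm* sequence, whose reads would count as *Ckm*, is not given in the sources used here.

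**Figure D5:**
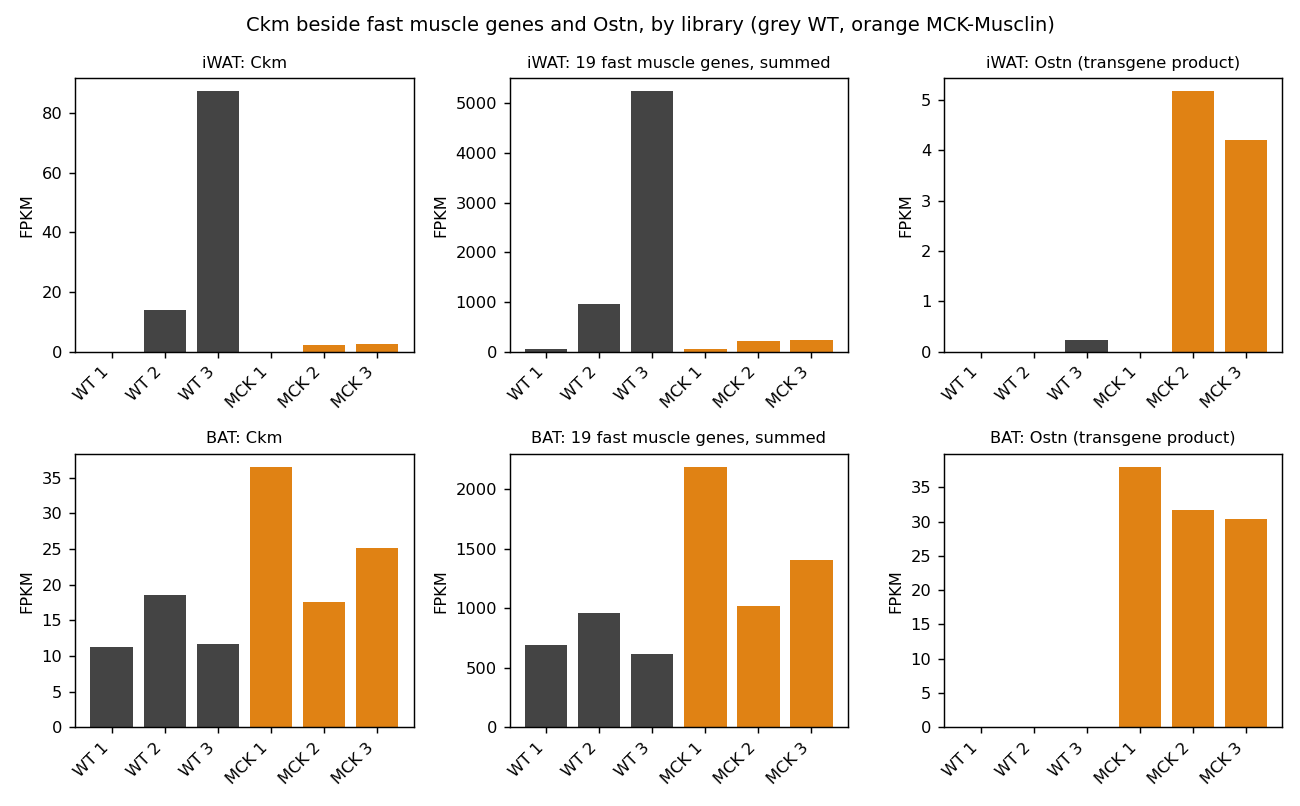
FPKM (vertical axes) of Ckm, of 19 fast muscle genes summed and of Ostn, the transgene product, in each of the 6 iWAT and 6 BAT libraries (horizontal axes). Ckm follows the fast muscle sum in both depots, from a listed 0 beside 47.2 to 87.2 beside 5239.7 in iWAT, and the iWAT library labelled MCK-Musclin 1 is listed at 0 for both Ckm and Ostn.

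*Phospho1* was the most abundant member in BAT, with an FPKM of 131, 108 and 138 in WT and 263, 127 and 138 in MCK-Musclin libraries. MCK-Musclin library 1 alone stood above the WT range, and the log2 change was 0.41 (SE 0.26, limma adjusted p = 0.968). Without that library it was 0.08. *Phospho1* shares annotated exon bases with *Zfp652* on its own strand and with *Abi3* on the other, and the authors' alignment did not use strand. *Zfp652* had an FPKM of 6.99, 3.97 and 5.81 in WT and 50.2, 6.78 and 4.49 in MCK-Musclin BAT, so the library highest in *Phospho1* was also the one high in *Zfp652*. *Abi3* had at most 3.003 in any of the 6. How reads were divided between these genes was not tested. The same library also stood apart in the summed FPKM of 6 macrophage genes, with 117 against 36.9 to 48.1 in the other 5. Of the 6, 1 was higher at the cutoff, namely *Csf1r* (log2 change 0.61). Its means were 2.04 ± 0.0353 in WT and 3.66 ± 0.218 in MCK-Musclin BAT (SD), so it was not high in that library alone. The sum of 6 endothelial genes was 152 to 170.5 in WT and 143 to 149 in MCK-Musclin BAT, without overlap, and 0 of the 6 passed the cutoff in limma (1 at an unadjusted p under 0.05). The part of these cells in the BAT values of the members was not tested. In iWAT, where *Phospho1* fell, *Zfp652* was 7.59, 9.59 and 7.14 in WT and 8.23, 5.60 and 6.42 in MCK-Musclin libraries, and *Abi3* was 9.30, 6.43 and 5.72 against 8.48, 9.97 and 8.09. Both neighbours overlapped between the groups in iWAT. Brown and beige fat genes summed to 9135 to 10538 in WT and 8773 to 10168 in MCK-Musclin BAT, with 1 of 12, *Cox8b*, lower at the cutoff (log2 change -0.35).

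*Ckb* in BAT had an FPKM of 21.3, 12.4 and 19.4 in WT and 18.2, 10.4 and 30.3 in MCK-Musclin libraries, a log2 change of 0.06 (SE 0.36, limma adjusted p = 0.996) that turned negative when MCK-Musclin library 3 (-0.30) or WT library 2 (-0.17) was left out. *Alpl* had 25.8, 21.3 and 28.7 against 27.5, 22.4 and 35.1, a log2 change of 0.15 (SE 0.18, limma adjusted p = 0.972). The transporter *Slc6a8* had 3.17, 2.01 and 2.32 against 3.13, 2.79 and 2.46, a log2 change of 0.13 (SE 0.16, limma adjusted p = 0.972). The groups overlapped for all 3 of these genes. *Ckb* was 58.5%, 33.6% and 56.5% of the summed kinase FPKM in WT BAT and 24.6%, 29.6% and 47.1% in MCK-Musclin BAT. *Ckm* held the larger share in WT library 2 (50.25%) and in MCK-Musclin libraries 1 (49.4%) and 2 (49.98%), and *Ckb* in the other 3.

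The members under the filter in BAT were the synthesis enzymes and *Ckmt1*. *Gatm* had an FPKM of 1.11, 0.664 and 1.30 in WT and 0.658, 1.25 and 0.711 in MCK-Musclin BAT, and *Gamt* had 1.13, 1.06 and 0.690 against 0.155, 0.904 and 0.419. Fitted without the filter, *Gamt* was at -0.42 (SE 0.21, limma adjusted p = 0.908) and *Gatm* at -0.11 (SE 0.19, limma adjusted p = 0.931). *Ckmt1* had at most 0.143 in any BAT library and is listed at 0 in 3 of the 6. For levels this low the depth is unknown in reads, and a difference was not detectable.

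None of the pathway genes beyond the members passed the cutoff in BAT. In limma this was 0 of 8 genes of precursor and methyl supply, 0 of 10 phosphotransfer partners and 0 of 6 genes of phosphocholine metabolism (0, 0 and 0 at an unadjusted p under 0.05), with median log2 changes of -0.00383, -0.01 and 0.09. The ADP/ATP carrier *Slc25a4* had a mean FPKM of 148 in both groups.

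The tables of iWAT, BAT and the 7 tissues were normalized separately, so their values stand side by side without a test. In cold WT mice the mean FPKM of *Phospho1* was 14.8 in iWAT and 126 in BAT, and that of *Alpl* was 5.55 and 25.3. *Ckb* was 19.2 ± 3.13 in iWAT and 17.7 ± 4.67 in BAT. The synthesis enzymes had the opposite order, with *Gatm* at 7.07 and 1.03 and *Gamt* at 5.58 and 0.959. White and brown adipose of the 7 tissues had the same order for *Phospho1*, *Alpl*, *Gatm* and *Gamt*, while *Ckb* was 28.6 in white and 45.2 in brown adipose there. The summed FPKM of a library was 364710 to 384104 in the iWAT table, 676362 to 720852 in the BAT table and 393682 to 711437 in the 7 tissues.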

How the data were processed

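Poly(A) RNA of 19 mouse libraries was sequenced. Per the study's methods and the labels, the authors filtered reads with fastp and bowtie2 and aligned them with HISAT2 2.1.0 to mm10 (GRCm38) without strand. The deposited values are FPKM per gene and library, calculated with StringTie per the methods, while the submitters' processing notes name Cuffdiff. Read counts were not used here, so the depth in reads is unknown. From steps between low values, depth differed by a factor of 0.918 to 1.05 from heart among the 7 tissues and 0.89 to 1.11 from WT library 1 in BAT. The iWAT table also holds the authors' own fold changes, p-values, FDR and group means, which were not used, and the filter that chose its genes is not stated. Repeated lines (287 genes in 2 tables) were used once.

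Groups follow the labels. MCK-Musclin and WT were compared within a table with limma 3.58.1 (lmFit, eBayes with trend, R 4.3.3) on log2(FPKM + 1), for genes averaging an FPKM of 1 or more, without covariates. This scale understates changes of low genes. The study tested counts with another tool, and its cutoffs were kept. p-values were adjusted by Benjamini-Hochberg over all genes of a table. Single values were compared by exact two-sided permutation (scipy 1.17.1). Other tools were Python 3.11.15, numpy 2.4.6, pandas 2.3.3 and matplotlib 3.10.9. The fit was also run on simulated data and scored by an adjusted p under 0.05. That run does not bear on the calls made here at an unadjusted p. Genes named are the 9 members, examples from the fixed lists, the 3 nearest genes of each member over the 7 tissues (2 of which are not reported here), and genes overlapping a member's exons. The members and lists were chosen with earlier results of these data known. Positions are from GENCODE for GRCm38 and promoters from RefSeq. Alternatives were other pseudocounts, filters and scalings, no trend, the replicate number as a block and leaving out each library. The ratios to fast muscle and brown fat genes were added after seeing the data.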

Additional observations from a re-analysis of the deposited data

How the results depend on the processing

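In iWAT, the count of members lower in MCK-Musclin was 1 as reported, 3 with the replicate number as a block (*Ckm* and *Ckmt2* joined *Phospho1*), and 1 to 3 when each library was left out, with 3 without WT library 1. In BAT, the count of members higher was 2 as reported and 1 to 2 when each library was left out. The replicate numbers were not taken as pairs, and the labels do not say whether they pair. Same-number deviations correlated at 0.235, 0.0615 and 0.107 in iWAT and at -0.0951, -0.00463 and 0.00937 in BAT. Deviations of different numbers correlated at -0.18 to 0.0702 in iWAT and at -0.0842 to 0.0795 in BAT. Each WT library in iWAT thus correlated best with the MCK-Musclin library of its own number. MCK-Musclin library 2, however, correlated best with WT library 3 (0.0702). Whether the iWAT numbers are pairs is not settled by these values. The block gave 774 calls over all genes in iWAT and 460 in BAT. *Phospho1* in iWAT stayed past the cutoff in every alternative, with log2 changes of -2.26 to -1.34 when each library was left out. Relative to brown and beige fat genes, however, the change of *Phospho1* shrank from -1.74 to -0.50. That value lies at the edge of the 0.5 cutoff, and the fall was largely shared with these genes. *Ckmt2* in BAT also stayed past its cutoff in every alternative (0.78 to 1.43 when each library was left out), but not relative to fast muscle genes.

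Signs turned for members without a call: *Gatm* (0.0174) and *Alpl* (0.0484) in iWAT on centring to adipocyte genes, and, when each library was left out, *Ckb* (-0.00382 to 0.209) and *Gamt* (-0.14 to 0.35, and -0.00185 in another) in iWAT and *Ckb* (-0.30 to 0.42, and -0.17 in another) and *Alpl* (-0.01255 to 0.299) in BAT. Relative to fast muscle genes, *Ckm* in BAT turned to -0.0289 and *Ckmt2* in iWAT to 0.35. The cause was not tested. The number of genes lower at the cutoff over the whole iWAT table moved from 110 to between 30 (centred on adipocyte genes) and 213 (without WT library 1), and 1690 were higher on that centring, against 615. With only genes averaging 5 FPKM or more, there were 71 lower in iWAT, 114 lower and 102 higher in BAT, against 234 and 202 as reported, and centring gave 112 lower in BAT. TPM gave 201 and median-ratio scaling 187 lower in iWAT, and leaving out MCK-Musclin library 1 gave 178. Tissue-enriched members remained 4 with a pseudocount of 0.1, became 6 at 2 times the next tissue and 3 on TPM, where *Gamt* dropped out.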
